A study of Mus musculus with 6 samples.

Results

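The genes described here are 9 enzymes and transporters by which the liver makes glucose and stores it as glycogen, in mouse livers without and with Sirt5. They were picked by gene name, and all 9 were among the 55536 genes of the deposited table. They are Pck1, Pcx, Fbp1, G6pc and Slc37a4 of glucose production, and Ugp2, Gys2, Gbe1 and Pygl of glycogen turnover. All 9 passed the filter on low counts and were tested among 14799 genes in all. The livers came from male C57BL/6 mice, with 3 Sirt5-/- and 3 Sirt5+/+ libraries. Sirt5 encodes a mitochondrial deacylase, and the series title asks how its loss bears on liver tumour formation. All the mice, Sirt5+/+ ones included, had received 50 µg of a piggyBac-type plasmid with a CMV promoter for myc-tagged YAP5SA, a constitutively active YAP, together with 10 µg of plasmid for the transposase. Both were given by hydrodynamic injection at 4 weeks of age, and livers were taken 20 days later. The plasmid reaches some hepatocytes only, so each sample mixes hepatocytes with and without it. Whether each library came from its own mouse is not stated in the labels, and the p-values therefore reflect only how these libraries varied, which may be technical.

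Gluconeogenesis turns pyruvate, lactate, glycerol and amino acids into glucose when food is absent, and the liver is its main site. Pyruvate carboxylase makes oxaloacetate, phosphoenolpyruvate carboxykinase turns this into phosphoenolpyruvate, fructose bisphosphatase removes a phosphate further up, and glucose-6-phosphatase frees glucose inside the endoplasmic reticulum after a transporter has carried its substrate in. Glycogen is built from UDP-glucose by glycogen synthase and the branching enzyme and is taken down by glycogen phosphorylase.

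Library totals were 20025180 to 24330797 expected counts in Sirt5-/- and 19307808 to 23410091 in Sirt5+/+, and the lowest count of any of the 9 genes was 91 (Gbe1, Sirt5-/- replicate 1). Sirt5 had 13.8, 44.7 and 17.99 counts in Sirt5-/- livers and 352, 441 and 95.7 counts in Sirt5+/+ livers, so each library matched its labelled genotype. Mitochondrially encoded genes took 17.5 to 40.8% of counts in Sirt5-/- and 6.58 to 46.4% in Sirt5+/+. The highest shares were those of Sirt5-/- replicate 1 and Sirt5+/+ replicate 3. CPM below are counts set to a common library size with TMM factors, which correct for differences in RNA composition between libraries. The factors ran from 0.396 in Sirt5+/+ replicate 3 to 1.68 in Sirt5-/- replicate 3. Alb, the albumin gene, averaged 13304 ± 4560 CPM in Sirt5-/- and 52599 ± 4855 CPM in Sirt5+/+ (SD, n = 3 each). Its log2 difference of -1.98 did not pass (edgeR adjusted p = 0.0607).

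The proximal promoters of 3 of the genes are shown because they differed in the size of the change and in the call: Fbp1 had the largest difference of the 9, Pck1 the highest level, and G6pc was the gene that did not pass the test. The sequences span the RefSeq transcription start (build GRCm38.p6) and run 5′ to 3′ on the strand of the gene. Capitals mark matches on either strand to a cAMP response element core (ACGTCA), a FOXO core (GTAAACA), an HNF4 core (CAAAGTC), a glucocorticoid receptor core (TGTTCT) or a TATA box (TATAAA).
Pck1, chr2:173152823-173153122, plus strand: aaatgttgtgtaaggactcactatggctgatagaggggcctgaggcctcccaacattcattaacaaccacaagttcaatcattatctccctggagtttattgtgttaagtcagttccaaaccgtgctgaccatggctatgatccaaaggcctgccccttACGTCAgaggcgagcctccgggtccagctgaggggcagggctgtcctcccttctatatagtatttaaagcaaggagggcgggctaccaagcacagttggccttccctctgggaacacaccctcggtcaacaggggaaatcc
G6pc, chr11:101367466-101367765, plus strand: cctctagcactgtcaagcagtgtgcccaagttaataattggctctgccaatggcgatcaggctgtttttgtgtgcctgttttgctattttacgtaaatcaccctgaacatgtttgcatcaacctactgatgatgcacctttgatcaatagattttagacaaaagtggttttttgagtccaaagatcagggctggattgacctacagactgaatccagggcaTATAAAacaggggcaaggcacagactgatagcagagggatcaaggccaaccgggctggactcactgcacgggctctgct
Fbp1, chr13:62888233-62888532, minus strand: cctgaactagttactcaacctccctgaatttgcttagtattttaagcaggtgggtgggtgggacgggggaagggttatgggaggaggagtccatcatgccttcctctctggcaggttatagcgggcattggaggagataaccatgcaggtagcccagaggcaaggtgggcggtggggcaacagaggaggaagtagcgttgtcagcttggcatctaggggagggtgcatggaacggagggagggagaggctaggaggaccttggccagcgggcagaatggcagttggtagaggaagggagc

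The Pck1 window held the cAMP response element core 91 to 86 bases before the start. The G6pc window held a TATA box 29 to 24 bases before the start, and the Fbp1 window held none of the 5 motifs. These letters are common: of 32851 promoter windows of the same length, 7.51% held the cAMP response element core and 13.6% the TATA box. The capitals cover the 5 motifs only, so sites of other liver factors are not marked. The letters GTTAAT of HNF1 sites, left out of the 5, occur in the G6pc window. They also occur on the opposite strand of the Pck1 window, and on neither strand of the Fbp1 window. How common GTTAAT is among promoter windows was not counted. Of the other members, Slc37a4 had the cAMP response element core 61 to 56 bases before its first listed start, also found before its next start, and a TATA box before its last. The windows of Pcx, Ugp2, Gbe1 and Pygl held none of the 5 motifs. The RefSeq promoter table matched 8 of the 9 genes, all but Gys2.

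Transcripts for glucose production and glycogen turnover were lower in Sirt5-/- livers. Of the 9 genes, 8 passed at an adjusted p under 0.05, all 8 lower (edgeR quasi-likelihood test, adjusted over all 14799 genes), and G6pc did not pass. Over all tested genes 34.5% passed, 17.1% as lower and 17.4% as higher. The median log2 fold change of the 9 was -2.28, against -0.08 over all tested genes. The livers of the genotypes did not overlap in CPM for the same 8 genes, with Sirt5-/- lower each time, against 24% of all tested genes without overlap in that direction and 49.8% in either. In bulk tissue, fewer hepatocytes and less of a transcript in each cannot be told apart.

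Pck1 (ENSMUSG00000027513, chromosome 2, 173153048 to 173159273, plus strand, GRCm38) encodes the cytosolic phosphoenolpyruvate carboxykinase, a rate-setting and hormone-responsive step. It had 1513, 868 and 551 CPM in Sirt5-/- livers and 2355, 2222 and 4207 CPM in Sirt5+/+ livers. The highest Sirt5-/- liver stayed under the lowest Sirt5+/+ liver. Pck1 fell by 1.58 ± 0.53 on the log2 scale (SE; edgeR adjusted p = 0.0488). This call sat at the threshold: it was missed without each library in turn except Sirt5-/- replicate 1, with adjusted p from 0.0600 (without Sirt5+/+ replicate 3) to 0.194 (without Sirt5-/- replicate 2), and it was missed in 11 of 17 alternatives in all.

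Pcx (ENSMUSG00000024892, chromosome 19, 4510472 to 4621752, plus strand), pyruvate carboxylase of the mitochondrial matrix, had 36.1, 36.2 and 31.5 CPM in Sirt5-/- livers and 413, 246 and 86.1 CPM in Sirt5+/+ livers. The Sirt5-/- livers lay close together, whereas the Sirt5+/+ livers spread widely. Pcx fell by 2.85 ± 0.53 (log2, SE; edgeR adjusted p = 0.00521). Fbp1 (ENSMUSG00000069805, chromosome 13, 62864753 to 62888282, minus strand) encodes fructose-1,6-bisphosphatase, which opposes phosphofructokinase. It had 29.9, 36.8 and 31.9 CPM in Sirt5-/- livers and 913, 633 and 84.2 CPM in Sirt5+/+ livers. Its highest Sirt5+/+ liver was 10.8 times its lowest, the largest such ratio within a genotype among the 9 genes. Fbp1 fell by 4.05 ± 0.78 (log2, SE; edgeR adjusted p = 0.00573), the largest difference of the 9. Sirt5+/+ replicate 3 held 0.109 times the mean Fbp1 CPM of the other Sirt5+/+ livers and still lay above the 3 Sirt5-/- livers.

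The last step was uneven. G6pc (ENSMUSG00000078650, chromosome 11, 101367561 to 101377903, plus strand), the catalytic subunit of glucose-6-phosphatase, had 151, 71.2 and 42.3 CPM in Sirt5-/- livers and 108, 84.9 and 206 CPM in Sirt5+/+ livers. The genotypes overlapped, and the log2 difference was -0.59 ± 0.51 (SE; edgeR adjusted p = 0.405). Slc37a4 (ENSMUSG00000032114, chromosome 9, 44396852 to 44402968, plus strand), the transporter that brings glucose 6-phosphate to that enzyme, had 27.0, 27.6 and 22.2 CPM in Sirt5-/- livers and 182, 122 and 67.7 CPM in Sirt5+/+ livers. Its groups stood clear of each other, and Slc37a4 fell by 2.28 ± 0.38 (log2, SE; edgeR adjusted p = 0.00359).

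**Figure D1:**
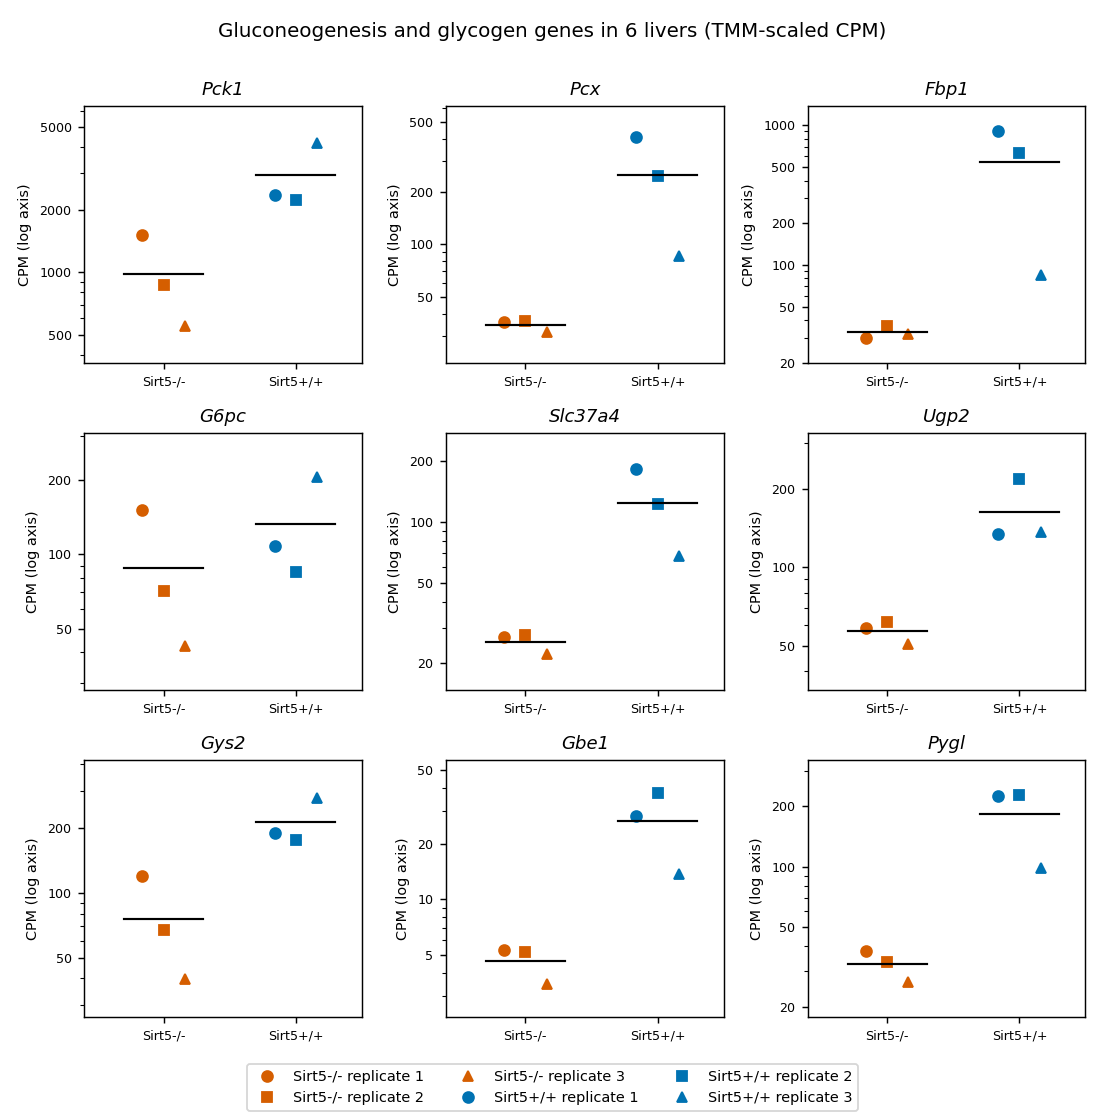
CPM (TMM-scaled, log axis) of the 9 genes in each liver, Sirt5-/- on the left and Sirt5+/+ on the right, with symbols for replicates and a bar for the mean of 3. In 8 panels all Sirt5-/- livers lie under all Sirt5+/+ livers, and those of G6pc overlap. The triangle of Sirt5+/+ replicate 3 is the highest Sirt5+/+ point for Pck1, G6pc and Gys2 and the lowest for Pcx, Fbp1, Slc37a4, Gbe1 and Pygl.

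Glycogen synthesis genes were lower at each step listed. Ugp2 (ENSMUSG00000001891, chromosome 11, 21321138 to 21371201, minus strand) makes UDP-glucose, the donor for glycogen. It had 58.4, 61.9 and 50.9 CPM in Sirt5-/- livers and 134, 218 and 136 CPM in Sirt5+/+ livers, and it fell by 1.51 ± 0.29 (log2, SE; edgeR adjusted p = 0.00602). Gys2 (ENSMUSG00000030244, chromosome 6, 142422613 to 142473109, minus strand), the liver glycogen synthase, had 120 CPM in Sirt5-/- replicate 1, 67.1 in replicate 2 and 39.7 in replicate 3, against 191, 176 and 277 CPM in Sirt5+/+ livers. Gys2 fell by 1.51 ± 0.43 (log2, SE; edgeR adjusted p = 0.0267). The Gys2 call was missed without Sirt5+/+ replicate 1 or 2 or Sirt5-/- replicate 2 or 3, with adjusted p from 0.0522 to 0.112. Gbe1 (ENSMUSG00000022707, chromosome 16, 70313949 to 70569716, plus strand), the branching enzyme, was the least abundant of the 9, at 5.31, 5.15 and 3.45 CPM in Sirt5-/- livers and 28.3, 37.7 and 13.8 CPM in Sirt5+/+ livers. It fell by 2.53 ± 0.39 (log2, SE; edgeR adjusted p = 0.00290).

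Pygl (ENSMUSG00000021069, chromosome 12, 70190811 to 70231488, minus strand) encodes liver glycogen phosphorylase, which releases glucose 1-phosphate from glycogen. It had 37.9, 33.5 and 26.6 CPM in Sirt5-/- livers and 225, 227 and 98.8 CPM in Sirt5+/+ livers, with no overlap. Pygl fell by 2.49 ± 0.38 (log2, SE; edgeR adjusted p = 0.00280). Enzymes that build glycogen and the enzyme that takes it down were thus both lower. At most 1.57% of the 31-base words in the transcripts of any of the 9 genes occurred in another gene, so reads shared with close copies could touch few of their counts.

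With Sirt5-/- replicate 1 and Sirt5+/+ replicate 3 both left out, 8 of the 9 genes again passed as lower, against 22.8% of all genes. With both left out, Pck1 had a log2 change of -1.64 (adjusted p = 0.00869, edgeR), Fbp1 one of -4.44 (adjusted p = 0.000120) and G6pc one of -0.71 (adjusted p = 0.0903). With only Sirt5+/+ replicate 3 left out, 7 genes passed as lower, against 23.4% of all genes, and Pck1 was at -1.17 (edgeR adjusted p = 0.0600) and G6pc at -0.07. Scaling by library totals in place of TMM left 4 genes past the threshold, Fbp1, Pcx, Gbe1 and Pygl, against 2.2% of all genes called lower. That scaling set the median log2 change of all genes at 0.60, against -0.08 with TMM. It set Pck1 at -0.92 (adjusted p = 0.387), Gys2 at -0.92 (adjusted p = 0.397), Ugp2 at -0.97 (adjusted p = 0.364), Slc37a4 at -1.80 (adjusted p = 0.0572) and G6pc at 0.08 (adjusted p = 0.954). In the deposited TPM, transcript shares per length set per library by the authors, 2 of the 9 genes, Pck1 and Gys2, kept all Sirt5-/- livers below all Sirt5+/+ livers. The share of all genes without overlap was taken on CPM only, so this count has no background in TPM.

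The 9 genes formed patterns among the livers of 1 genotype. In CPM, Pck1, G6pc and Gys2 were highest in replicate 1 among Sirt5-/- livers and in replicate 3 among Sirt5+/+ livers. Those values were 2.13, 2.66 and 2.24 times the mean of the other 2 in Sirt5-/-, and 1.84, 2.14 and 1.51 times in Sirt5+/+. These are the livers with most mitochondrial reads of each genotype, 40.8% and 46.4%. The direction depended on the scale: in TPM, Pck1, G6pc and Gys2 were lowest in Sirt5+/+ replicate 3 among Sirt5+/+ livers. Pck1 had 465 TPM there, against 952 and 1129 in replicates 1 and 2. G6pc had 25.4 against 48.5 and 47.7 TPM, and Gys2 83.5 against 111 and 125 TPM. Among Sirt5-/- livers in TPM, G6pc and Gys2 were still highest in replicate 1, and Pck1 in replicate 2. In CPM the other 6 genes in Sirt5-/- replicate 1 were within 0.869 and 1.26 times the mean of the other Sirt5-/- livers. In Sirt5+/+ replicate 3 they lay under the mean of the other Sirt5+/+ livers, from 0.109 times for Fbp1 to 0.774 times for Ugp2. The part of the mitochondrial share in these patterns was not tested. The GC content of Pck1, G6pc and Gys2 was 53.0, 47.7 and 48.1%, and that of the other 6 ran from 39.1% (Ugp2) to 57.7% (Pcx). Over all tested genes, the median log2 level of Sirt5+/+ replicate 3 minus that of the other Sirt5+/+ livers was 0.40 among the 3698 genes of lowest GC content (up to 44.6%) and -0.28 among the 3698 of highest (54.2% or more). The part of GC content in the pattern of the 9 genes was not tested.

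In TPM, which can be compared between genes, Pck1 ranked first of the 9 in each liver and Gbe1 last. Pck1 had 389, 431 and 314 TPM in Sirt5-/- livers and 952, 1129 and 465 TPM in Sirt5+/+ livers. It made up 67.2, 62.4 and 57.5% of the summed TPM of the 9 genes in Sirt5-/- livers and 41.1, 46.5 and 69.4% in Sirt5+/+ livers. Gys2 came next after Pck1 in the 3 Sirt5-/- livers and in Sirt5+/+ replicate 3. Fbp1 had 21.3 to 47.4 TPM in Sirt5-/- livers, against 749 and 640 TPM in Sirt5+/+ replicates 1 and 2, where it came next after Pck1, and 27.3 TPM in replicate 3. Among the genes in the middle the order changed from liver to liver, so neighbours there cannot be ranked beyond the spread between livers.

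Among isozymes of the same reactions, Pck2 and G6pc3 rose, and Gys1 and Pygb did not pass. Pck2, the mitochondrial carboxykinase, had 13.4, 12.8 and 16.1 CPM in Sirt5-/- livers and 5.65, 5.03 and 3.67 CPM in Sirt5+/+ livers. It rose by 1.54 ± 0.26 (log2, SE; edgeR adjusted p = 0.00368). G6pc3, the widely expressed glucose-6-phosphatase, rose by 1.297 ± 0.29 (log2, SE; edgeR adjusted p = 0.0101), with 15.4 to 16.6 CPM in Sirt5-/- livers and 4.75 to 9.17 CPM in Sirt5+/+ livers. Its call was lost without Sirt5-/- replicate 3 (adjusted p = 0.0501). Gys1, the muscle-type synthase, had log2 0.51 ± 0.45 (SE; adjusted p = 0.421, edgeR) and Pygb, the brain-type phosphorylase, 0.27 ± 0.32 (SE; adjusted p = 0.550, edgeR). Neither passed, and both were low, at most 2.89 and 9.58 CPM in any liver.

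**Figure D2:**
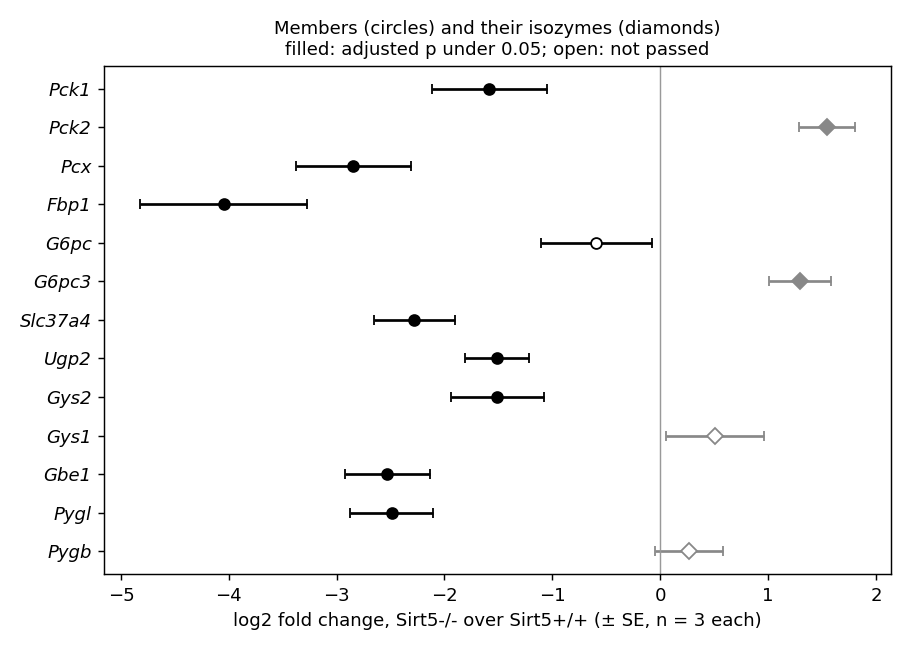
Log2 fold change of Sirt5-/- over Sirt5+/+ with its SE (3 livers each) for the 9 genes (circles) and for their isozymes (diamonds). Filled symbols passed an adjusted p of 0.05 over all tested genes. There are 8 circles left of 0 that passed, G6pc is open, and Pck2 and G6pc3 lie right of 0 at 1.54 and 1.297.

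Ratios within a library do not depend on scaling between libraries, so 8 of them were compared, with an exact two-sided permutation test whose smallest p is 0.1 for 3 against 3. None can therefore pass 0.05. For 3 ratios the genotypes did not overlap. Pck1 had 120, 63.2 and 33.4 times the TPM of Pck2 in Sirt5-/- livers and 371, 482 and 1163 times in Sirt5+/+ livers. With 0.1 TPM added to each gene the mean log2 difference was -3.11 (exact p = 0.1, adjusted p = 0.267 over 8 ratios). The 1163 rests on a low Pck2 level, 0.40 TPM (28 counts) in Sirt5+/+ replicate 3. G6pc had 5.20, 2.56 and 1.39 times the TPM of G6pc3 in Sirt5-/- livers, against 10.3, 9.55 and 12.3 times in Sirt5+/+ livers (difference -1.98, exact p = 0.1, adjusted p = 0.267). Pygl had 10.4, 6.08 and 4.31 times the TPM of Pygb in Sirt5-/- livers, against 44.3, 46.7 and 45.6 times in Sirt5+/+ livers (difference -2.72, exact p = 0.1, adjusted p = 0.267). The Pygl to Pygb ratio of plain TPM was nearly the same in the 3 Sirt5+/+ livers, but Pygb had only 0.34 TPM (35 counts) in replicate 3. With 0.1 TPM added the log2 ratios were 5.40, 5.49 and 5.15 in Sirt5+/+ replicates 1, 2 and 3.

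The other ratios overlapped between genotypes. The Gys2 to Pygl ratio, synthase over phosphorylase, was 7.55, 3.87 and 3.14 in Sirt5-/- livers and 1.28, 1.15 and 5.39 in Sirt5+/+ livers (log2 difference 1.17, exact p = 0.3, adjusted p = 0.3). G6pc over Slc37a4, the catalytic subunit over its transporter, was 4.80, 2.13 and 1.52 in Sirt5-/- livers and 0.497, 0.579 and 2.57 in Sirt5+/+ livers (log2 difference 1.46, exact p = 0.3, adjusted p = 0.3). In both ratios the value of Sirt5+/+ replicate 3 fell among the Sirt5-/- values, and without it the log2 differences were 1.88 and 2.21 (exact p = 0.2 each, the smallest p that 3 against 2 allows). For Pcx over Pck1 the log2 difference was -0.85 (exact p = 0.3, and -1.46 without Sirt5+/+ replicate 3), and for Gys2 over Gys1 -1.24 (exact p = 0.2), each with an adjusted p = 0.3.

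**Figure D3:**
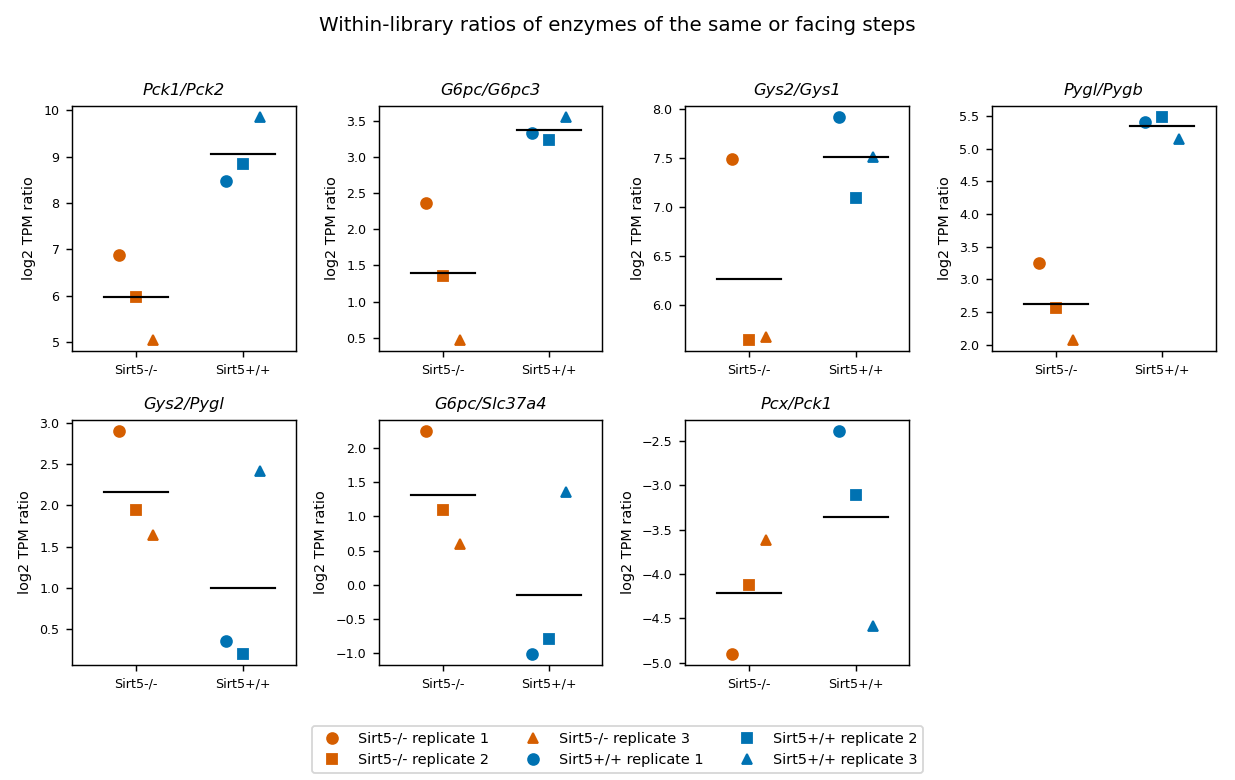
Log2 ratio of TPM (0.1 added to each) within each liver for 7 enzyme pairs, Sirt5-/- on the left and Sirt5+/+ on the right, with symbols for replicates and a bar for the mean of 3. Pck1/Pck2, G6pc/G6pc3 and Pygl/Pygb separate the genotypes. In Gys2/Pygl, G6pc/Slc37a4 and Pcx/Pck1 the triangle of Sirt5+/+ replicate 3 lies level with or beyond Sirt5-/- points.

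Markers of cell types also differed between the genotypes, in both directions. Of 14 hepatocyte markers 11 fell and 3, Alb, Apoa1 and Apoa2, did not pass, with summed levels of 25639 to 47047 CPM in Sirt5-/- and 111081 to 160037 CPM in Sirt5+/+. The markers had a median log2 change of -2.01. Of 6 macrophage markers 4 rose and 2, Clec4f and Cd5l of resident Kupffer cells, fell (summed 915 to 1841 CPM in Sirt5-/-, 286 to 402 CPM in Sirt5+/+). Bile duct markers had 2 of 6 higher (739 to 818 CPM in Sirt5-/-, 77.5 to 386 CPM in Sirt5+/+), stellate cell and fibroblast markers 2 of 6 higher (1723 to 1887 CPM in Sirt5-/-, 316 to 565 CPM in Sirt5+/+), and T and NK cell markers 3 of 5 tested higher (19.5 to 22.0 CPM in Sirt5-/-, 2.86 to 6.03 CPM in Sirt5+/+). Of the other lists, 3 of 5 endothelial markers fell, and 1 of 4 B cell and 1 of 2 tested neutrophil markers rose. Their part in the differences of the 9 genes was not tested.

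The 9 genes were therefore also set against the 14 hepatocyte markers, as log2 CPM minus the markers' mean in that library, and on that measure none of the 9 differed at an adjusted p under 0.05 (limma; 0 of 9 at an unadjusted p under 0.05), while 77% of all tested genes were higher in Sirt5-/- and 0.257% lower. Relative to the markers, G6pc was 1.298 ± 0.59 higher in Sirt5-/- (log2, SE; limma adjusted p = 0.0691) and Fbp1 had a difference of -1.49 ± 0.68 (log2, SE; limma adjusted p = 0.0701). The other 7 lay between -0.59 (Pcx) and 0.51 (Ugp2), with Slc37a4 at -0.18, Pck1 at 0.34 and Gys2 at 0.36. Both larger differences grew on leaving out Sirt5+/+ replicate 3. Without it G6pc was 1.90 ± 0.48 higher (limma adjusted p = 0.00303) and Fbp1 2.32 ± 0.45 lower, a log2 difference of -2.32 (limma adjusted p = 0.000571). In that fit 12107 of 14799 genes passed as higher and 104 as lower. With Sirt5-/- replicate 1 left out as well both passed too, G6pc at 1.57 (limma adjusted p = 0.00750) and Fbp1 at -2.10 (limma adjusted p = 0.000956). There 12427 genes passed as higher and 89 as lower, so a call as higher does not set G6pc apart.

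**Figure D4:**
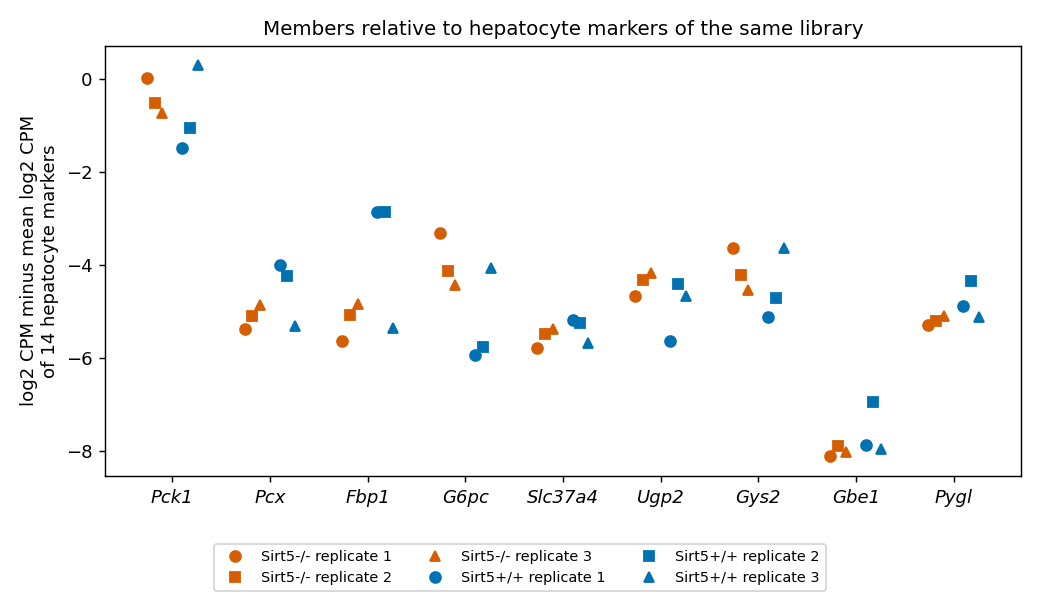
Log2 CPM of each of the 9 genes minus the average of the 14 hepatocyte markers there, Sirt5-/- livers left and Sirt5+/+ livers right of each gene, with symbols for replicates. Sirt5-/- and Sirt5+/+ points overlap for each gene. For G6pc and Fbp1 the replicate 3 triangle of Sirt5+/+ lies among the Sirt5-/- points, away from the other Sirt5+/+ livers.

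Other genes of glycogen turnover were lower in part. Of 11 tested genes of the glycogen cycle besides the members, 5 fell and none rose, with a median of -0.99. Stbd1, which anchors glycogen to membranes, averaged 9.85 ± 1.08 CPM in Sirt5-/- and 64.2 ± 28.1 CPM in Sirt5+/+ (SD, n = 3 each), a log2 change of -2.71 (edgeR adjusted p = 0.00225). The phosphoglucomutase gene Pgm1 fell by 2.61 (edgeR adjusted p = 0.00834), though 15.1% of the Pgm1 words occur in another gene. Epm2a, the glycogen phosphatase laforin, fell by 1.41 (edgeR adjusted p = 0.0212), a call lost without any 1 of the Sirt5-/- livers or Sirt5+/+ replicate 2, and with library totals (adjusted p = 0.569). The muscle phosphorylase gene Pygm was not tested. It had 3.05, 8 and 9.68 counts in Sirt5-/- livers and 5.08, 120 and 0 counts in Sirt5+/+ livers, and the 120 came from Sirt5+/+ replicate 2, which also held 858 counts of the muscle gene Ckm, against at most 10 in any other liver.

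Among 16 tested regulators of glycogen enzymes 2 fell, 1 rose and 13 did not pass (median -0.31), fewer calls for its size than the 34.5% of all tested genes that passed in either direction. Both that fell encode subunits that bring protein phosphatase 1 to glycogen. Ppp1r3c averaged 1.90 ± 0.28 CPM in Sirt5-/- and 26.3 ± 15.8 CPM in Sirt5+/+ (SD, n = 3 each; log2 change -3.81, edgeR adjusted p = 0.00224), and Ppp1r3b averaged 11.8 ± 3.46 CPM in Sirt5-/- and 54.4 ± 16.1 CPM in Sirt5+/+ (log2 change -2.21, edgeR adjusted p = 0.00253). The Ppp1r3b call was lost with library totals (adjusted p = 0.0610). The one that rose, Ppp1r3f, is uncertain: it had 51.2, 51.3 and 85.5 counts in Sirt5-/- livers and 3.73, 4.59 and 0 counts in Sirt5+/+ livers, it shares exon bases with Foxp3, and 52.2% of its words occur in other genes. Phkb, a phosphorylase kinase subunit, was at -0.88 and just missed the threshold (edgeR adjusted p = 0.0506). It passed without Sirt5+/+ replicate 3 (adjusted p = 0.0156).

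Steps that feed the pathway were lower as well. Of 15 tested precursor genes 11 fell and 2, the isozyme genes Pck2 and G6pc3, rose (median -1.51). The alanine transaminase gene Gpt2 fell by 2.09 and Gpt fell by 2.85 on the log2 scale, and Gpd1, the cytosolic glycerol-3-phosphate dehydrogenase, fell by 2.64 (edgeR adjusted p from 0.00242 to 0.00280). Gpt averaged 27.5 ± 2.91 CPM in Sirt5-/- and 198 ± 105 CPM in Sirt5+/+ (SD, n = 3 each). The Gpt2 call was lost with library totals (adjusted p = 0.117). Of 13 steps shared with glycolysis 6 fell and 1, the aldolase gene Aldoa, rose (median -1.52). The malate dehydrogenase gene Mdh1 fell by 1.60, the aspartate transaminase gene Got2 fell by 2.17, the aldolase gene Aldoc fell by 2.15 and the phosphoglycerate kinase gene Pgk1 fell by 1.76 (edgeR adjusted p from 0.00909 to 0.0221), but 30.9% of the Got2 words and 54.7% of the Pgk1 words occur in other genes. Without Sirt5-/- replicate 3 each of these 4 missed the threshold (adjusted p from 0.0540 to 0.0785), and likewise Mdh1, Got2 and Pgk1 without Sirt5-/- replicate 2 (0.0530 to 0.0798), Aldoc and Pgk1 without Sirt5-/- replicate 1 (0.0501 and 0.0812), and Pgk1 without Sirt5+/+ replicate 1 or 2 (0.0696 and 0.0689). All 4 missed it with library totals too (adjusted p from 0.0650 to 0.296).

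Genes for glucose entry split. The 7 tested genes gave 3 lower, among them Gckr, a regulatory protein of sugar phosphorylation, and the liver transporter Slc2a2, and 4 higher, the transporter Slc2a1 and the hexokinases Hk1, Hk2 and Hk3. Gckr averaged 25.6 ± 3.49 CPM in Sirt5-/- and 111 ± 7.95 CPM in Sirt5+/+ (SD, n = 3 each; log2 change -2.12, edgeR adjusted p = 0.00168). Hk1 averaged 13.8 ± 0.896 CPM in Sirt5-/- and 6.15 ± 0.346 CPM in Sirt5+/+ (log2 change 1.17, edgeR adjusted p = 0.00526), and Slc2a1 averaged 35.1 ± 3.85 CPM in Sirt5-/- and 10.3 ± 0.844 CPM in Sirt5+/+. With library totals Gckr (adjusted p = 0.112) and Hk1 (adjusted p = 0.0569) missed the threshold. Hk3 is best known from white blood cells.

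Of 28 genes for hormonal and transcriptional control 11 fell, 4 rose and 13 did not pass (median -0.65). Hnf4a, a hepatocyte factor that binds gluconeogenic promoters, averaged 132 ± 31.9 CPM in Sirt5-/- and 486 ± 45.6 CPM in Sirt5+/+ (SD, n = 3 each; log2 change -1.88, edgeR adjusted p = 0.00372). The cAMP-responsive genes Nr4a1 and Sik1 rose by 2.83 and 1.81 (edgeR adjusted p = 0.00185 and 0.00280). Sik1 encodes a kinase that restrains the CREB co-activator CRTC2. Named after their values were seen, the glucagon receptor gene Gcgr fell by 1.78, the co-activator gene Ppargc1a fell by 2.09 and the FOXO factor gene Foxo1 fell by 1.12 (edgeR adjusted p = 0.00379, 0.0178 and 0.0264). The Foxo1 call was lost without each library in turn except Sirt5+/+ replicate 3 (adjusted p up to 0.110), and that of Ppargc1a without Sirt5-/- replicate 2 or 3 or Sirt5+/+ replicate 2 (up to 0.0775). With library totals Hnf4a, Gcgr, Ppargc1a and Foxo1 missed the threshold (adjusted p = 0.201, 0.226, 0.112 and 0.567).

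**Figure D5:**
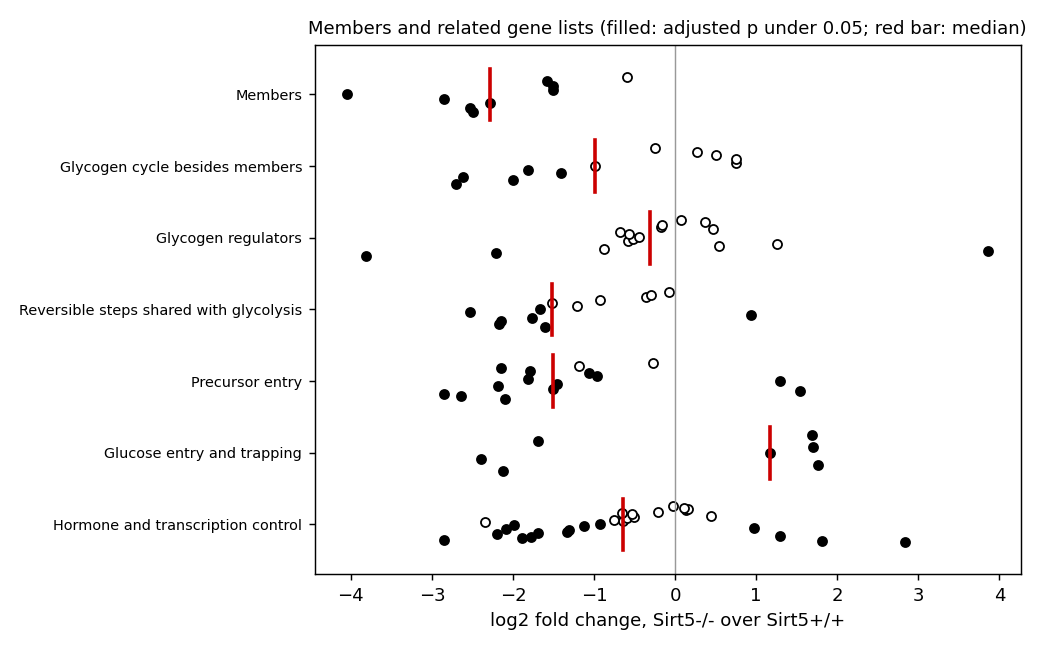
Log2 fold change of Sirt5-/- over Sirt5+/+ for the 9 genes and 6 lists of related genes, 1 point a tested gene, filled where the adjusted p was under 0.05, with the list median as a red bar. The medians of the 9 genes, the shared steps and precursor entry are -2.28, -1.52 and -1.51, and glucose entry lies on both sides of 0.

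The mean centred log2 CPM of the 9 genes was -0.69, -0.97 and -1.42 in Sirt5-/- livers and 1.33, 1.19 and 0.55 in Sirt5+/+ livers. Of the other genes, 1812 averaged 50 CPM or more, and the 5 of these with the most similar pattern over the 6 livers were Nat8f2, Sema4g, Masp1, Keg1 and Cyp4v3, with Pearson r from 0.998 to 0.999. This is a description of 6 livers that fall into groups by genotype, with no test.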

How the data were processed

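Bulk RNA-seq of 6 livers was taken from 1 deposited table. The expected counts were deposited by the authors unscaled, the TPM were set per library by the authors, and the log2 fold changes and p-values of the authors' comparison were deposited beside them. HISAT2 2.1.0, RSEM 1.3.1 and DESeq2 1.24.0 are the tools per the submitters' processing notes, with roles, options and genome build not given in the sources used here. All 55536 gene IDs and names were those of GENCODE M21, so coordinates are on GRCm38.

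Expected counts were rounded, filtered with filterByExpr (minimum count 10, minimum total 15), scaled with TMM and compared by genotype in edgeR 4.0.16 (glmQLFit and glmQLFTest, two-sided), with Benjamini-Hochberg adjustment over 14799 genes at 0.05. The SE is the log2 fold change over the square root of F. Values relative to markers used limma 3.58.1 on log2 CPM (prior count 2). Log2 ratios and their tests used TPM plus 0.1, and ratios not on the log2 scale used TPM alone. Of 8 ratios 7 are given, and a few named list genes are not reported here. Alternatives used DESeq2 1.42.0, limma-voom, other scalings and filters, and left-out libraries. The main test was tried on simulated data. Words of 31 bases were counted on both strands. Named list genes were the 4 with the smallest p of each list. The 9 genes and the lists were chosen with earlier results of these data known.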

Additional observations from a re-analysis of the deposited data

How the results depend on the processing

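Across 17 alternatives 8 of the 9 genes kept a negative log2 change, and G6pc reversed once, to 0.082 with library totals. Fbp1, Pcx, Gbe1 and Pygl passed in each of the 17, Slc37a4 and Ugp2 in 16 (not with library totals), Gys2 in 10 and Pck1 in 6. Members called lower numbered 8, and 4 with library totals; leaving out 1 library gave 6 to 8. In the authors' deposited comparison of the same libraries the same 8 were lower at an adjusted p under 0.05. That comparison called 11.6% of genes lower (2946 of 25344). The count of all called genes was 5100, and 2763 with library totals (325 lower); leaving out 1 library gave 2531 to 7647, with 1441 to 3991 higher and 1090 to 3656 lower, and leaving out Sirt5-/- replicate 1 and Sirt5+/+ replicate 3 gave 3904 higher. Relative to hepatocyte markers 0 of the 9 passed as higher and 0 as lower (0 to 1 each on leaving out 1 library), except 1 lower (Fbp1) with the median of the markers, and 1 higher (G6pc) and 1 lower (Fbp1) without Sirt5+/+ replicate 3, alone or with Sirt5-/- replicate 1. The cause of these changes was not tested. The fits where a member passed relative to the markers called 9914 to 12427 of 14799 genes higher and 88 to 104 lower. The labels number the livers 1 to 3 in each genotype. Deviations from the group means correlated at -0.19, 0.11 and -0.20 between livers of the same number. These 3 values showed no pairing by number and cannot exclude one. A fit with the replicate number as a block called 6 of the 9 genes lower (not Pck1, Gys2 or G6pc), against 1665 genes lower in all. All 8 ratios kept their direction in each alternative. With library totals 13 of the other named genes missed the threshold: Aldoc, Epm2a, Foxo1, Gcgr, Gckr, Got2, Gpt2, Hk1, Hnf4a, Mdh1, Pgk1, Ppargc1a and Ppp1r3b. Fbp2, with 0 to 11 counts a library, and Pygm were too low to be tested.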
